A study of Mus musculus with 14 samples.

Results

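Late gestation was set against early gestation in the mouse lung. The late window held the 4 samples of embryonic days 16 and 18 (E16 and E18) and the early window the 4 samples of embryonic days 12 and 14 (E12 and E14), so that 8 of the 14 samples of the series entered the comparison. The samples of each window were taken by their labelled day alone, and the windows were chosen with earlier results of these data known. Each time point had 2 samples, and the other 6 samples were taken at postnatal days 2 and 10 (P2 and P10) and in the adult (AD). All samples came from ICR mice, an outbred stock, and were labelled female. Lungs were taken whole and pooled for total RNA, with the day of the plug counted as day 0 of gestation and no treatment or genetic change in any group. Because the lungs were pooled and used whole, a change in the share of a cell type and a change in RNA per cell cannot be told apart, and no source used here tells if the replicates were separate pools of animals. All p-values below therefore rest on a spread between samples that may be technical.

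MiRNAs are short RNAs that pair with messenger RNAs and lower their stability or translation. In early gestation the lung is in its pseudoglandular stage, when the airway tree forms by repeated branching of an epithelium into mesenchyme. Toward the end of gestation it passes through the canalicular and into the saccular stage, when the distal airspaces widen, the capillary bed approaches them and the distal epithelium begins to differentiate for breathing at birth. By the staging the paper gives, E16 still falls in the pseudoglandular stage, as E12 and E14 do, and E18 in the saccular stage.

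MiRNA levels were measured by TaqMan quantitative PCR on 2 array cards per sample. The values were ΔCT, the number of cycles by which an assay's threshold cycle exceeded that of U6, the small nuclear RNA that served as control on the cards. Levels run opposite to ΔCT, and a cycle stands for a 2-fold difference if the product doubles in each cycle. Differences are given as late minus early in level (minus ΔCT, a log2 scale), so that a positive difference is a higher level in the late window. Each row of the deposited values carried an assay number, and the files and reference tables used here pair none of these numbers with a miRNA. The miRNA lists drawn up for the comparison, including markers of tissues that a dissected lung could hold, could not be applied to the rows, and neither the tissue nor the lists could be checked. Assays are therefore described by their values, and 2 assay numbers are printed in each direction.

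Of the 516 assays, 386 were measured in at least 1 of the 8 embryonic samples and 130 were blank in all of them. Sizes were taken from the 269 assays measured in all 8 samples. Between 318 and 335 assays were measured in a late sample, against 315 to 330 in an early sample. The remaining 117 assays were measured in some of the 8 samples, 20 of them in all 4 late samples but fewer than 4 early samples and 20 in all 4 early samples but fewer than 4 late samples. They were mostly near the end of the measured range, with a median ΔCT of 16.2, against 11.3 for the 269. Only 1 assay was measured in all 4 late samples and blank in all 4 early ones. Its ΔCT was 19.1 and 18.5 at E16 and 18.1 and 17.8 at E18, which put it at least 1.72-fold higher in the late window when each early sample was taken at its own highest measured ΔCT. The single assay with the opposite pattern was blank in all 4 late samples and had a ΔCT of 19.0 and 18.1 at E12 and 19.2 and 19.2 at E14, at least 1.05-fold lower in the late window. Both bounds hold where a blank was a low level and not a failed reaction. Blanks also occurred among assays of high level. Of the 117, 10 had a mean ΔCT below 11.3 where measured, and 8 of these were blank in a single sample. The other 2 had their blanks in late samples. The first had a ΔCT of 4.93 in E16 replicate 1 and was blank in the other 3 late samples, against 5.19 and 4.43 at E12 and 5.53 and 4.99 at E14. The second had 7.84 and 9.90 at E16 and was blank in both E18 samples, against 8.05 and 7.46 at E12 and 8.10 and 8.15 at E14. These 2 were singled out after their values had been seen, and whether their blanks were low levels or failed reactions was not tested.

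The mean level over the assays read higher against U6 in late gestation. Averaged over the 219 assays that had a value in all 14 samples, ΔCT was 11.0 and 10.9 in the E16 samples and 9.94 and 10.4 in the E18 samples, against 11.6 and 11.4 in the E12 samples and 11.3 and 11.6 in the E14 samples. All 4 late samples stood above all 4 early samples in level, with a gap of 0.37 cycles between the nearest pair. The window means were 10.6 ± 0.49 in the late window and 11.5 ± 0.14 in the early window (SD, n = 4 each). The difference in level was 0.94 (exact permutation test over the 70 splits of 4 against 4, two-sided, p = 0.0286, the smallest value these splits allow). Here and below this test treats the 8 samples as exchangeable and takes no account of their time points. The 2 samples of a time point may be technical replicates, so that its p-values may be too small. A higher mean of the miRNAs and a lower U6 give the same ΔCT, and these files cannot separate them. Each difference is therefore given against U6 and again after each sample's mean over the 219 assays was subtracted (the global mean), which sets that shared part to 0 by construction.

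The measured shift in mean level differed in size between groups of assays, a difference that was not itself tested. Most deposited ΔCT values lay on whole-cycle steps that started from 1 of 2 decimals in a sample, and the decimals divided the 269 assays into 194 of a first set, 32 of a second set and 43 that were off the steps. In the 156 assays of the first set measured in all 14 samples, the mean ΔCT ran between 9.07 and 10.4 in the late samples, against 10.8 to 11.2 in the early samples, a difference in level of 1.20 with no overlap (exact permutation p = 0.0286, n = 4 each). In the 27 assays of the second set it ran between 11.1 and 12.0 in the late samples and between 11.4 and 11.9 in the early samples. This difference of 0.24 was within the overlap of the windows (exact permutation p = 0.314). The 36 assays off the steps had 12.8 to 13.6 in the late samples and 13.0 to 13.9 in the early samples, a difference of 0.33 (exact permutation p = 0.20). The division was made from the values, after they had been seen, and the rows do not name the card on which an assay was run. The 2 decimals of a sample lay only 0.015 to 0.135 cycle apart, so that the division rests on small differences.

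**Figure D1:**
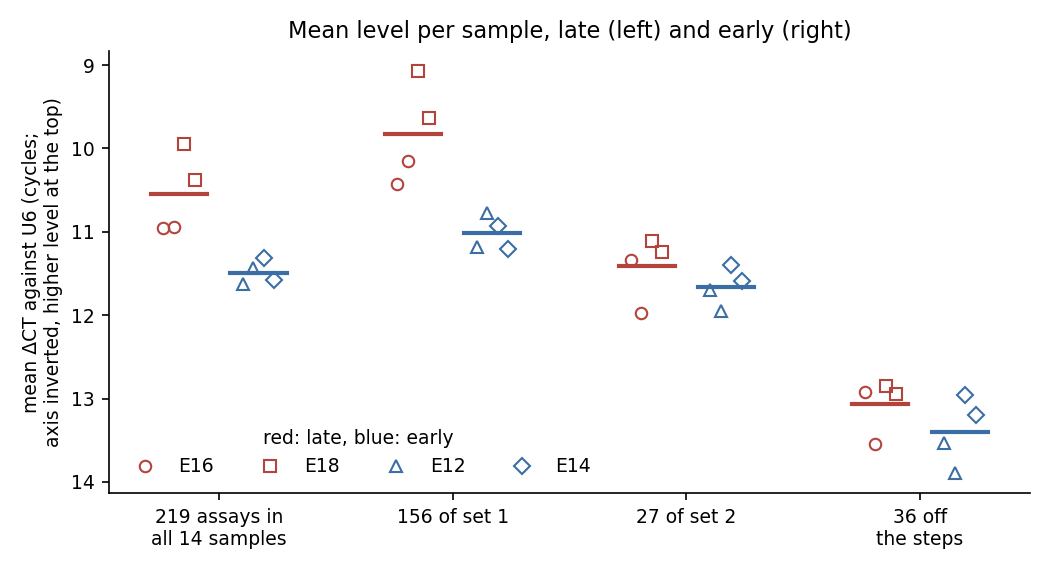
Mean ΔCT against U6 per sample, in cycles on an inverted axis, for the 219 assays measured in all 14 samples and for the 3 divisions by decimals, with late samples (red, E16 circles, E18 squares) to the left of early samples (blue, E12 triangles, E14 diamonds) and bars at window means. The windows are apart for the 219 assays and for the 156 of the first set and overlap for the other two.

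Against U6, the level of 111 of the 269 assays was higher in the late window and that of 5 was lower, which was 41.3% and 1.86% of all assays tested (limma, Benjamini-Hochberg adjusted over the 269 assays). The median difference over all 269 assays was 0.76 on the log2 scale, with quartiles of 0.06 and 1.50, and 221 assays had a positive difference. The standard error of a single difference had a median of 0.35. In 80 assays (29.7%) all 4 late samples were above all 4 early ones and in 1 (0.372%) all were below. Of the 111 assays called higher 74 had windows that did not overlap, and of the 5 called lower none did. Against U6 the share called higher was larger in assays of higher level. With the assays divided by level into 3 classes of like size, it was 32.2% in the lowest, 40.4% in the middle and 51.1% in the highest class, with median differences of 0.51, 0.67 and 0.99. Against the global mean the shares called higher in the same classes were 8.89%, 22.5% and 21.1%, so that the highest class was not above the middle one. The median differences on that scale were -0.43, -0.26 and 0.05, and the shares called lower were 32.2%, 25.8% and 17.8%. These medians and shares still ran with the level.

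Against the global mean the calls divided between both directions. The level of 47 assays (17.5%) was higher in the late window and that of 68 (25.3%) was lower by the same test. The median difference was -0.18, with quartiles of -0.88 and 0.57, and the median standard error was 0.30. All 4 late samples were above all 4 early samples in 26 assays (9.67%) and below them in 30 (11.2%), of which 24 and 28 were also called. All 47 assays called higher against the global mean were also called higher against U6, and all 5 called lower against U6 were also called lower against the global mean. The other 64 rises against U6 were not called against the global mean, the other 63 falls against the global mean were not called against U6, and 90 assays were called with neither. No assay was called in opposite directions.

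**Figure D2:**
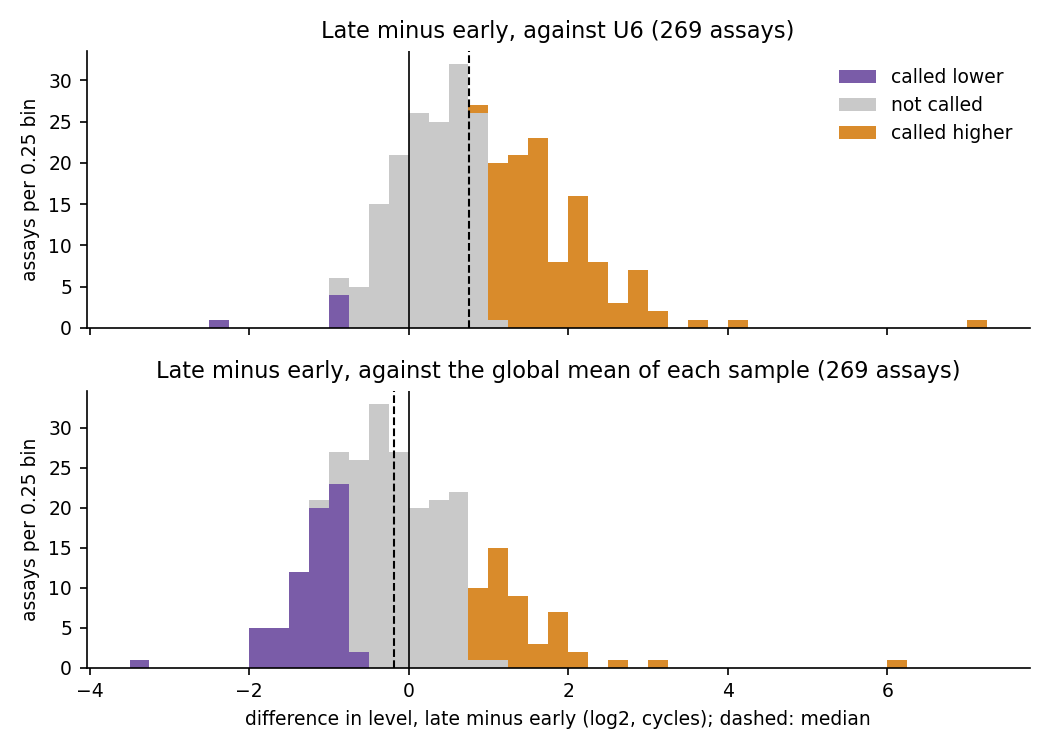
Number of assays per bin of 0.25 on the log2 scale of the difference in level, late minus early, for 269 assays against U6 (top) and against the global mean of each sample (bottom), coloured by limma call, with the median dashed. The median lies at 0.76 against U6 and at -0.18 against the global mean, and calls lower number 5 in the top panel and 68 in the bottom panel.

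These counts were made with 1 mean for each of the 7 time points over all 14 samples, so that the change within a window did not count as error. When the 4 late samples were simply pooled against the 4 early ones, with 1 mean per window, 85 assays were higher and 1 lower against U6, and 22 were higher and 26 lower against the global mean. Calls lower against the global mean were unevenly spread over the divisions by decimals. They took in 30 of 194 assays of the first set (15.5%), 15 of 32 of the second set (46.9%) and 23 of 43 off the steps (53.5%), whereas calls higher took in 45, 1 and 1. Their medians against the global mean were -0.05, -0.71 and -0.92, and against U6 0.89, 0.23 and 0.02. Fitted on the first set alone, 45 assays were higher and 31 lower against the global mean, so that the share of calls that were higher was 59.2% in place of 40.9%. When the first set alone was set against its own mean, 38 were higher and 66 lower, a share of 36.5%. With the assays of each division set against their own mean, 50 were higher and 63 lower, of which 39 and 41 were among the 47 and 68, and no call changed direction. The part of these divisions in the differences between windows was not tested.

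The assays that rose with both scalings were led by a small group. The 47 had a median difference of 2.24 on the log2 scale against U6 (1.72 to 7.01) and of 1.31 against the global mean (0.79 to 6.07), equal to 4.74-fold and 2.47-fold. Their mean ΔCT over the 8 samples ran between 3.63 and 16.0, so that they covered most of the measured range. The windows did not overlap in 43 of them against U6 and in 24 with both scalings. The 12 largest rises of these 24 ran between 2.53 and 7.01 against U6 (limma adjusted p up to 2.23e-05) and between 1.59 and 6.07 against the global mean (adjusted p up to 3.01e-04). All 12 belonged to the first set, which held 72.1% of the assays tested. Below the leading assays the sizes were close to each other. The rises ranked 5 to 11 lay between 1.81 and 1.84 against the global mean, and the standard errors of the 12 were between 0.27 and 0.41. Values on whole-cycle steps allow only few sizes of difference, so that the order within these ranks was not resolved.

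Assay 1030 had the largest rise. Its ΔCT was 7.07 and 7.21 at E16 and 5.07 and 5.08 at E18, against 15.0 and 14.1 at E12 and 10.2 and 13.1 at E14. Every late sample was at least 3 cycles above every early one, and the early window was itself uneven, since the 2 samples of E14 differed by more than any other pair of replicates of this assay. The difference was 7.01 against U6, or 129-fold (SE 0.45, limma adjusted p = 9.33e-10), and 6.07 against the global mean, or 67.4-fold (SE 0.41, adjusted p = 1.14e-09). Without E14 replicate 2 the difference against U6 was 6.28, and without E14 replicate 1 it was 7.74. The change was spread over gestation. Against U6 the level was 2.90 higher at E14 than at E12 (adjusted p = 0.0203), 4.53 higher at E16 than at E14 (adjusted p = 2.63e-04) and 2.07 higher at E18 than at E16 (adjusted p = 0.0314). Against the global mean the first and second of these steps were called (2.81 and 4.03, adjusted p = 0.00931 and 2.95e-04) and the last was not (1.28, adjusted p = 0.195). After birth its ΔCT was 7.15 and 7.27 in the P2 samples, 9.09 and 9.06 in the P10 samples and 8.13 and 8.15 in the adult samples. These later samples lay between the early window and E18, and all of them were above all early samples in level.

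Assay 1141 came second, at a much lower level. Its ΔCT was 13.1 and 12.2 at E16 and 10.1 and 11.1 at E18, against 16.0 and 17.2 at E12 and 14.2 and 15.1 at E14. The windows were apart and both of them held a rise, with E14 above E12 and E18 above E16 in level. The difference was 4.02 against U6, or 16.2-fold (SE 0.41, limma adjusted p = 8.83e-07), and 3.08 against the global mean, or 8.44-fold (SE 0.36, adjusted p = 2.69e-06). Its single steps were 1.88, 2.03 and 2.08 against U6, of which the one between E16 and E18 was called (adjusted p = 0.0266), and 1.80, 1.53 and 1.29 against the global mean, of which the one between E12 and E14 was called (adjusted p = 0.0397). Its ΔCT after birth, 11.2 and 10.3 in the P2 samples, 12.1 and 11.1 in the P10 samples and 10.1 and 11.2 in the adult samples, overlapped that of E18.

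The falls were smaller and rested more on the scaling. The 68 assays lower against the global mean had a median difference of -1.16 on that scale (-3.42 to -0.69) and of -0.22 against U6 (-2.48 to 0.25). The 12 largest falls with windows apart on the global mean ran between -3.42 and -1.39 (limma adjusted p up to 0.00168). Against U6 the same 12 had differences between -2.48 and -0.45, of which 4 were called, and in 11 of the 12 the windows overlapped on that scale. By decimals 5 of the 12 belonged to the first set, 3 to the second and 4 were off the steps. With the assays of each division set against their own mean, all 12 falls and all 12 rises had a limma adjusted p of at most 0.0257. This setting moves all assays of a division by the same amount, which was smaller than these differences, so that no direction could turn.

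Assay 2602 had the largest fall. Its ΔCT was 17.1 and 17.2 at E16 and 16.1 and 17.1 at E18, against 13.0 and 13.1 at E12 and 16.2 and 15.1 at E14. The 2 samples of E12 stood apart in level from the other 6, and E18 replicate 1 and E14 replicate 1 overlapped against U6. The difference was -2.48 against U6 (SE 0.36, limma adjusted p = 5.18e-05) and -3.42 against the global mean, or 10.7-fold lower (SE 0.33, adjusted p = 1.33e-06), where the windows were apart. Its level was also lower at E14 than at E12, within the early window, by both scalings, with a difference of -2.59 against U6 (adjusted p = 0.0157) and of -2.67 against the global mean (adjusted p = 0.00327). Between E16 and E14 the difference was -1.48 against U6, which was not called (adjusted p = 0.149), and -1.98 against the global mean, which was (adjusted p = 0.0351). After birth it was blank in 1 of 2 samples at each time point, with a ΔCT of 18.2 in the P2 sample, 18.1 in the P10 sample and 18.1 in the adult sample that measured it.

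Assay 1684 came second among the falls and shows how the scaling bears on them. Its ΔCT was 14.1 and 15.1 at E16 and 14.1 and 13.1 at E18, against 13.2 and 13.1 at E12 and 13.1 and 13.1 at E14. The 4 early samples fell on the same step, which is no measure of precision, and E18 replicate 2 lay among them. The difference was -0.96 against U6 (SE 0.36, limma adjusted p = 0.0355) and -1.90 against the global mean (SE 0.33, adjusted p = 2.33e-04), and -1.21 with its own set as the standard (adjusted p = 0.00268). The call against U6 was lost when any sample but E16 replicate 1 and E18 replicate 2 was left out, with adjusted p up to 0.164 without E16 replicate 2. The call against the global mean was kept when each of the 8 samples was left out in turn. Its ΔCT after birth was 12.9 and 12.1 in the P2 samples, 11.1 and 11.0 in the P10 samples and 12.1 and 13.2 in the adult samples, so that its level did not stay low against U6.

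**Figure D3:**
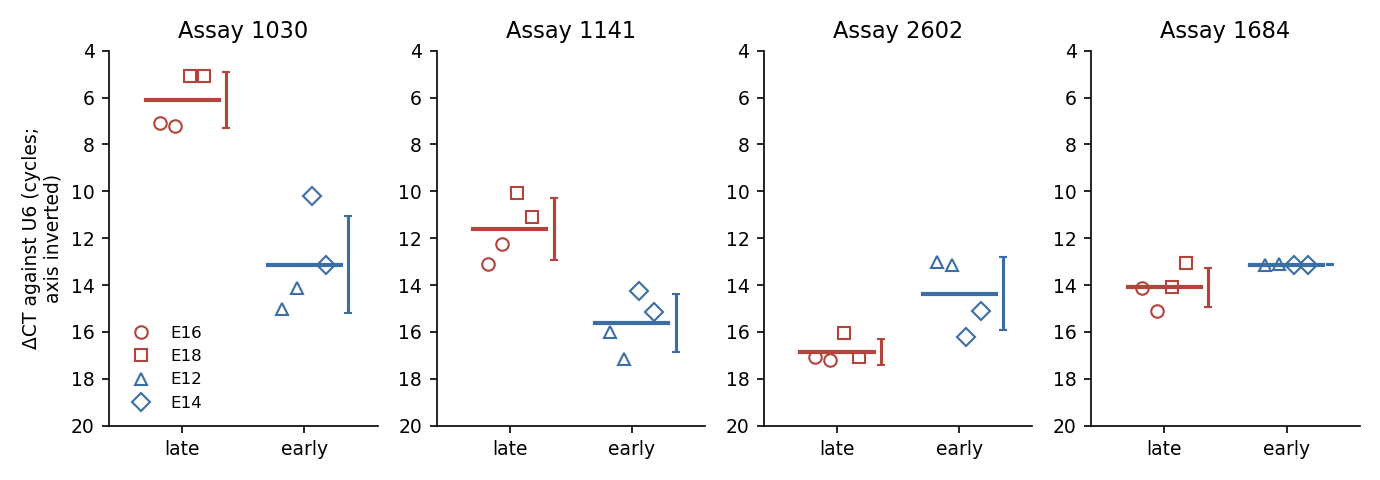
ΔCT against U6 in cycles, on an inverted axis, for the 4 assays given by number, with late samples (red, E16 circles, E18 squares) left of early samples (blue, E12 triangles, E14 diamonds), bars at window means and whiskers of 1 SD (n = 4). Assays 1030 and 1141 have windows that are apart, and assays 2602 and 1684 overlap on this scale.

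**Figure D4:**
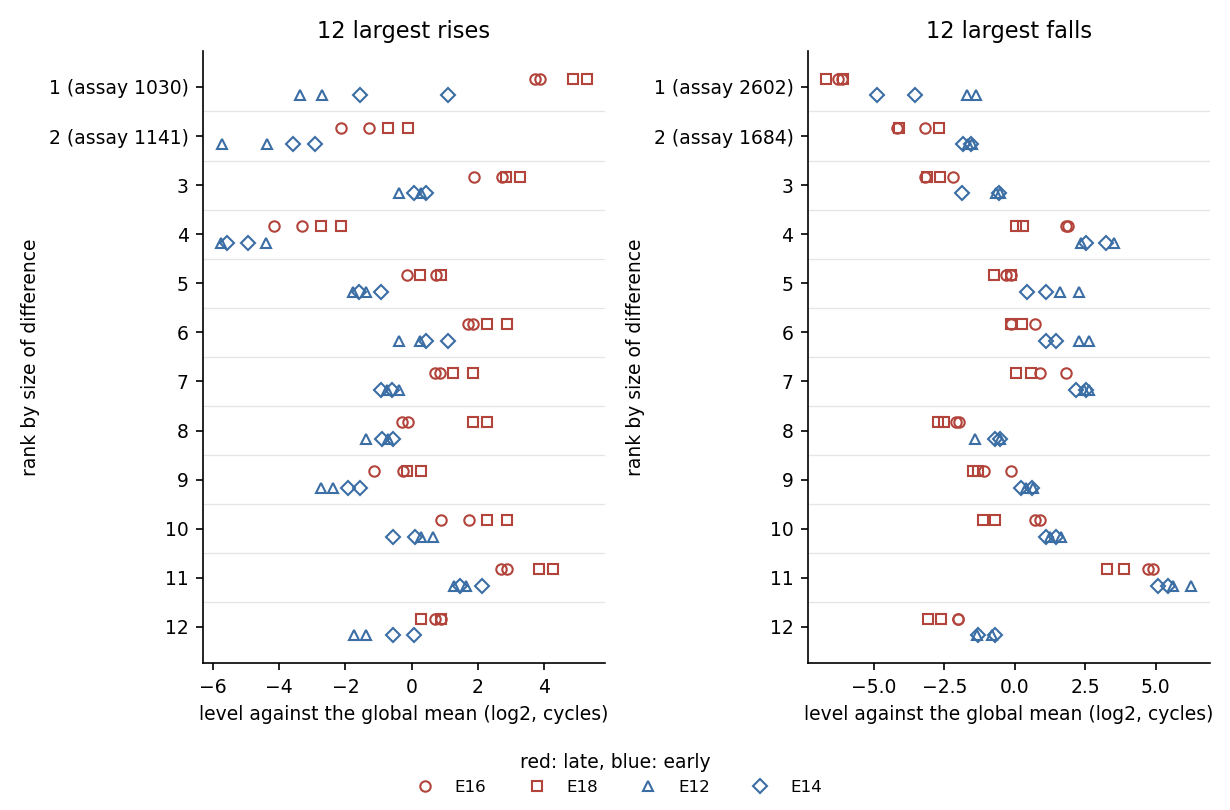
Level against the global mean in each of the 8 samples, on the log2 scale, for the 12 largest rises (left) and the 12 largest falls (right), with late samples (red) drawn above early samples (blue) at each rank. The windows are apart in all 24 assays, by which they were chosen, and the smallest gap is 0.21 among the rises and 0.20 among the falls.

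The single steps placed most calls against U6 at the end of gestation. Between E12 and E14, 2 assays (0.743%) were higher and 1 (0.372%) lower at E14. Between E14 and E16, 8 (2.97%) were higher at E16 and 0 lower. Between E16 and E18, 56 (20.8%) were higher at E18 and 1 (0.372%) lower. By an ordinary test without limma's moderation the 3 steps had 0, 0 and 36 assays higher and 1, 0 and 0 lower. At an unadjusted limma p below 0.05, the 3 steps had 22, 52 and 102 assays higher and 19, 6 and 2 lower. The median step of the 269 assays was -0.09, 0.52 and 0.58 in that order. With the global mean subtracted, the median steps were -0.17, 0.02 and -0.21, and no step stood out in its calls, with 7 higher (2.6%) and 7 lower (2.6%) at E14, 7 (2.6%) and 5 (1.86%) at E16, and 6 (2.23%) and 7 (2.6%) at E18. The ordinary test called between 0 and 6 assays per step and direction on that scale. Each step compares 2 samples with 2, where the windows compare 4 with 4.

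Each late time point was also set against the 4 early samples. E18 had 135 assays higher (50.2%) and 3 lower (1.12%) against U6, and E16 had 32 (11.9%) and 3 (1.12%). Against the global mean E18 had 49 higher (18.2%) and 72 lower (26.8%), and E16 had 20 (7.43%) and 19 (7.06%). For the 47 assays higher with both scalings, the median difference on the global mean was 0.94 at E16 and 1.72 at E18, and 19 and 43 of them were called at these time points. For the 68 assays lower, it was -0.83 and -1.50, with 19 and 55 called. Against U6 the median of the same 68 was -0.29 at E16 and -0.16 at E18, so that their larger median difference at E18 held for the global mean only. Both contrasts use the same early samples and are parts of the window comparison by which these assays were chosen.

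The differences by which the assays were chosen did not include the later time points, although the later samples entered the estimate of the spread, the calls and the choice of assays for the global mean. Of the 45 rises measured in all 14 samples, the median level against the global mean was -0.60 at E12, -0.24 at E14, 0.34 at E16, 1.54 at E18, 1.55 at P2, 1.87 at P10 and 1.97 for adult lungs. In 29 of the 45, all 6 samples taken after birth were above all 4 early samples, and in 0 of them all 6 were below. Over all 219 assays measured in the 14 samples, all 6 were above in 50 (22.8%) and below in 49 (22.4%). Against U6 all 6 were above in 31 of the 45, and over the 219 assays they were above in 50 (22.8%) and below in 31 (14.2%). Against U6 the median level of the same assays was highest at E18, at -8.61, and lower at P2, at -9.73. Of the 53 falls measured in all 14 samples, the median level against the global mean was -0.03 at E12, 0.27 at E14, -0.67 at E16, -1.40 at E18, -1.45 at P2, -1.20 at P10 and -1.55 for adult lungs. In 29 of the 53, all 6 later samples were below all 4 early samples, and in 2 they were all above. Against U6 they were all below in 18 of the 53. Another 15 of the 68 falls, and 2 of the 47 rises, were blank in at least 1 later sample. The early samples enter both the choice of the assays and this description, so that it carries no test and nothing is read from the counts beside those of the 219.

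**Figure D5:**
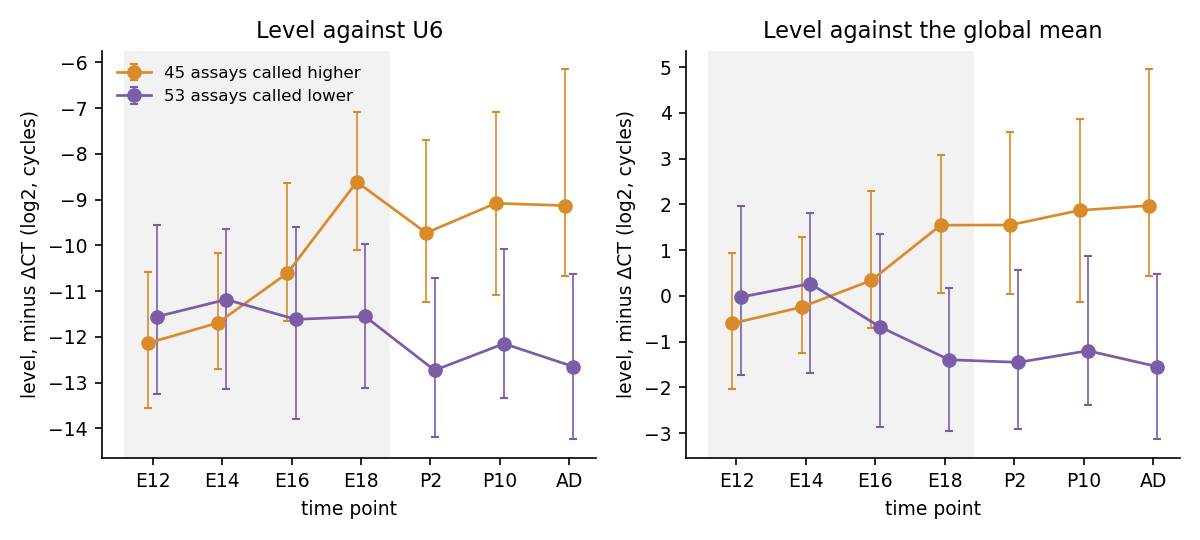
Median level (minus ΔCT, log2 scale) at the 7 time points of 45 assays called higher with both scalings and 53 assays called lower against the global mean, all measured in the 14 samples, against U6 (left) and against the global mean (right). Whiskers run between the quartiles of the assays and the 4 embryonic time points are shaded. Against the global mean the rises reach 1.54 at E18 and 1.97 in the adult, and the falls -1.40 and -1.55.

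The spread of the replicates sets what these values resolve. The root mean square SD of the 2 samples of a time point was between 0.50 and 0.63 cycles over the 269 assays against U6, largest at E18. Where both values lay on whole-cycle steps, 2 samples of an assay were on the same step or about a whole number of cycles apart. The number was only about whole since the starting decimals differed a little between samples. Of the 269 assays, 43 were off the steps. The smallest differences called between the windows were 0.97 higher and -0.89 lower against U6, and 0.79 and -0.69 against the global mean. The only day given by the run files was that on which the source file was last modified. There were 4 such days for card A and 5 for card B among the 8 samples, with no day shared by the windows on either card, so that gestational window and this day cannot be told apart.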

How the data were processed

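The values used were the authors' deposited ΔCT values, 1 table for the 14 samples, which the methods treat as log2 values. According to the methods, total RNA of pooled lungs was reverse transcribed with pooled primers, run on TaqMan Low Density Array cards A and B and normalized to U6 on each card. The methods set reactions above an upper CT limit to that limit, and the deposited table has blanks, which were kept as missing. The run files deposited with the samples hold plate layouts and headers with no CT, and only the day on which the source run file was last modified was read from them. Depth has no meaning here, and the number of samples limits the precision.

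Cells below 0.001 (5 cells, all in E14 replicate 2) were set to missing. Minus ΔCT was fitted with limma 3.58.1 in R 4.3.3, with 1 mean per time point over all 14 samples and the contrast of E16 and E18 against E12 and E14, for the 269 assays measured in all 8 samples, and adjusted by Benjamini-Hochberg at a threshold of 0.05. All tests were two-sided. A fold is 2 raised to the difference. An assay was assigned to the set whose decimals lay nearer to its 8 values in sum. It was counted as off the steps where fewer than 6 of the 8 lay within 0.1 cycle of that set's decimal. In a sample the 2 decimals were between 0.015 and 0.135 cycle apart, so that a value could lie near both. Ranked assays were the 12 largest differences against the global mean that were called (with both scalings for rises) with windows apart, and the first 2 are printed by number. The windows and lists were chosen with earlier results of these data known. Alternatives were 1 mean per window, the 8 samples alone, a replicate block, the day of the card A file as a random block, the 219 assays, blanks at the highest value, no moderation, a variance trend, median centring and leaving out each sample. Those by decimals were added after the values had been seen.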

Additional observations from a re-analysis of the deposited data

Results flagged for a closer look

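Within the 4 samples of a window, 1 sample stood far from the other 3 by Dixon's test in 11 of the 104 groups examined (the 24 ranked assays with both scalings, and the mean levels). Chance gives this in about 1 in 20 groups of 4 independent values from 1 normal distribution. The groups here join 2 time points, and the ranked assays were chosen by their windows and entered with both scalings. That rate therefore does not apply to them. Values on whole-cycle steps set many of these gaps, since 3 samples on 1 step and the 4th on the next meet the criterion. The ratio of the gap to the range is given for each. Among the late samples against U6 it was 0.861 for E18 replicate 1 in the rise ranked 12, 0.841 for E18 replicate 2 in the fall ranked 11, 0.893 for E16 replicate 2 in the fall ranked 3, 0.878 for E16 replicate 1 in the fall ranked 6, 0.873 for E18 replicate 1 in the fall ranked 5 and 0.885 for E18 replicate 1 in assay 2602. Among the early samples against U6 it was 0.903 and 0.884 for E12 replicate 1 in the rises ranked 3 and 8, and 0.941 for E14 replicate 1 in the fall ranked 3, which had 0.897 against the global mean. The mean ΔCT of the assays off the steps had a ratio of 0.86 in the late window, for E16 replicate 2.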

How the results depend on the processing

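The calls higher against U6 (85 to 127, 111 as reported) and the direction of both medians held under every alternative run. Fits with 1 mean per window, the 8 samples alone, a replicate block, no moderation or a variance trend left each difference unchanged. Their medians therefore could not move. With the day of the card A file as a random block, 54 assays were higher and 86 lower against the global mean. No day was shared by the windows, so that this block cannot separate day from window. With 1 mean per window, 22 assays were higher and 26 lower against the global mean and 1 was lower against U6. The ordinary test gave 44 lower against the global mean and 2 lower against U6. The first set of assays alone, with fewer assays tested, gave 31 lower against the global mean and 1 lower against U6, but 66 lower when set against its own mean, and the day of the card A file as a random block gave 1 lower against U6. Leaving out each sample gave 94 to 120 higher and 1 to 4 lower against U6, 37 to 45 higher and 49 to 65 lower against the global mean, and medians of 0.55 to 0.78 and -0.32 to -0.15. The 5 falls against U6 came to between 1 and 3 without any sample but E16 replicate 1. The spread of a time point with 1 remaining sample was taken from the other time points. Where no value above shows it, the cause was not tested. The deviations of samples with the same replicate number had r between -0.42 and 0.24 over 21 pairs of time points, with 3 above 0.1. No common deviation was evident, but these values do not settle whether the numbers pair the samples. With the replicate block, 111 assays were higher and 2 lower against U6, and 47 higher and 68 lower against the global mean. The 24 ranked assays were followed under the alternatives against the global mean, and against U6 only for the first 2 of each direction. Of these 553 values, 542 kept their direction and call, 11 lost the call and 0 turned. Calls of the other ranked assays against U6 are not in this count. The 24 ranked assays were chosen for large called differences, and several alternatives left the difference itself unchanged. Against the global mean their windows were apart, so that leaving out a sample could not turn a direction. The count is thus largely set by that choice and gives no separate support. Of the 11, 10 were assay 1684 against U6 (adjusted p 0.0129 to 0.164 over its alternatives) and 1 was the fall ranked 5 against the global mean with blanks at the highest value (adjusted p = 0.334).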
